A study of Rattus norvegicus with 38 samples.

Results

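Myc and Mxd3 encode transcription factors that compete for the same partner, MAX, and their transcripts were followed here in blood leukocytes of rats given acetaminophen or methyl parathion. Each gene was read from the probe whose annotation gives that gene as its only symbol. This selects 2 genes with 1 probe each, of 5990 genes named by the 6104 probes with 1 symbol, and of 26857 gene probes in all. In the RefSeq annotation of the rat build GRCr8, Myc lies on chromosome 7 from 95483105 to 95488031 and Mxd3 on chromosome 17 from 9306552 to 9310278. The position of either probe within its gene was not analysed here.

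MYC is a basic helix-loop-helix leucine zipper protein that binds E-box DNA as a dimer with MAX and raises transcription of genes for ribosome assembly, translation, nucleotide synthesis and glycolysis. Proteins of the MXD family bind MAX in its place, occupy E-boxes as well and recruit the SIN3 and histone deacetylase complex, which lowers transcription. In lymphocytes Myc is known to rise when antigen drives the cells into division, and Mxd3 is known, from mouse cells, as the family member found in dividing cells, while its relatives are tied to differentiation.

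The animals were male CDF Fisher 344 rats, approximately 4 months old, which received a single intraperitoneal injection in vegetable oil. The groups were acetaminophen (1200 mg/kg), a pain reliever whose overdose damages the liver, methyl parathion (15 mg/kg), an organophosphate insecticide, and vegetable oil alone as the vehicle. Of either chemical, 4 rats were killed per time at 4, 12 and 24 h, 3 rats were killed at 168 h, and 4 separate vehicle rats were kept. All vehicle rats were killed at 24 h, so the hour of killing was not matched at 4 and 12 h, and age and handling were not matched at 168 h. Rats were killed by focused microwave irradiation of the head, heart blood was passed over a filter that holds leukocytes, and globin mRNA was depleted. One array was hybridised per rat, and the labels name no separate extraction or scan, so a batch was not tested.

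The 38 arrays had raw median signals of 176.6 to 389.6, and 36.4 to 51.7% of their gene probes were above background, meaning a signal-to-noise ratio of at least 3. The blood origin was checked on marker genes. In the vehicle rats 11 or 12 of 12 T cell markers, 3 of 3 B cell markers, 12 of 12 natural killer markers, 8 to 10 of 11 neutrophil markers and 5 or 6 of 6 monocyte markers were above background. Erythroid markers (7 or 8 of 8), platelet markers (2 to 5 of 5) and hepatocyte markers (4 to 7 of 11) were also above background there. In such bulk samples, fewer cells of a type and less RNA per cell cannot be told apart.

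A promoter sequence was found in the RefSeq table for Mxd3 and is shown to place the gene start. It covers 250 bases before and 50 bases after the annotated start, on the plus strand of GRCr8, chr17:9306302-9306601. Capitals mark GGGCGG, a core letter string of GC boxes, searched on both strands with overlaps allowed.
Mxd3 promoter: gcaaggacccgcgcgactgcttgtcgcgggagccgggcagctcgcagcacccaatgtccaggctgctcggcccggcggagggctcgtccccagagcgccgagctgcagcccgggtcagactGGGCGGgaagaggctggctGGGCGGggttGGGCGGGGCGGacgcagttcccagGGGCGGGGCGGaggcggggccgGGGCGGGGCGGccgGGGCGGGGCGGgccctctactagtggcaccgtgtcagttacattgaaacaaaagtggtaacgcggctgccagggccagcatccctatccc
The window was 73.3% G and C, against a median of 51.7% over 33469 promoters of 300 bases, of which 4.57% were as rich. It held 10 matches to GGGCGG, a string found at least once in 33.1% of those promoters and this often in 0.0837%. The E-box CACGTG had 0 matches (6.42% of promoters hold it), and the looser CANNTG, which contains it, also had 0 matches (72.1% of promoters hold it). A match is a description of letters and no evidence of binding, and no match says only that these letters are not in this window.

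Myc was a bright transcript, above background in all 38 arrays, with log2 levels of 12.14 to 13.95. In the acetaminophen vehicle rats its log2 level was 13.75, 13.50, 13.71 and 13.54 (mean 13.62 ± 0.13, SD, n = 4). In the methyl parathion vehicle rats it was 13.60, 13.56, 13.43 and 13.28 (13.47 ± 0.15, n = 4). The ranges of the vehicle groups overlapped, and the difference of 0.15 ± 0.18 (SE) did not pass the limma test (adjusted p = 0.845, 95% interval -0.21 to 0.52), in a comparison where no probe passed, 1378 had an unadjusted p under 0.05 and array weights called 1009.

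After acetaminophen, Myc fell in leukocytes at every time examined, with the lowest mean at 12 h, 2.62-fold below that of vehicle rats. At 4 h the log2 level was 13.23, 12.75, 12.25 and 12.46 (12.67 ± 0.42). All 4 rats lay below the lowest vehicle rat, as 7.72% of tested probes did, and rat 1 was the highest of the 4. The change was -0.95 ± 0.18 (SE; 1.93-fold lower, limma adjusted p = 0.00209), in a comparison where 6.58% of tested probes were called, 2.9% as higher and 3.68% as lower. The call was lost with median centring of the arrays in place of quantile normalization (-1.07, adjusted p = 0.0561) and when only these 8 arrays were fitted (adjusted p = 0.0796).

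At 12 h Myc reached its lowest level of the study, with log2 values of 12.14, 12.18, 12.41 and 12.21 (12.23 ± 0.12). These 4 rats lay close together and all below the vehicle rats, a pattern shared by 22.1% of tested probes. The change was -1.39 ± 0.18 (limma adjusted p = 1.91e-07), beside 34.3% of probes called and 20.5% called as lower. Over 17 alternative settings, which include each rat left out in turn, the change ran from -1.47 to -1.31 and the adjusted p from 4.07e-12 to 0.000564.

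At 24 h the level had risen again, to 13.23, 13.29, 13.07 and 13.03 (13.15 ± 0.12). All 4 rats were above every 12 h rat, as 7.85% of probes were, and still below every vehicle rat, as 21.4% of probes were. The rise from 12 to 24 h was 0.92 ± 0.18 (limma adjusted p = 0.000867; 6.96% of probes called), and it was 0.97 with median centring (adjusted p = 0.0674). Against vehicle the change was -0.47 ± 0.18 (1.39-fold lower, adjusted p = 0.0406), beside 35.6% of probes called and 20.9% called as lower. This last call was lost in 6 of 8 fits that left out 1 rat (-0.52 to -0.43, adjusted p 0.0418 to 0.101), namely vehicle rats 1, 3 and 4 and 24 h rats 1, 3 and 4. It was lost with median centring (-0.42, adjusted p = 0.325) and without the detection filter (adjusted p = 0.0832) as well.

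At 168 h, a time with no vehicle group of its own, the log2 level of Myc was 12.77, 12.61 and 13.32 (12.90 ± 0.38, n = 3). The 3 rats were below every vehicle rat, as 17.8% of probes were, with rat 3 nearest to them. The change was -0.72 ± 0.20 (1.65-fold lower, limma adjusted p = 0.0159; 11.1% of probes called, 3.08% as higher and 8.02% as lower). Leaving out rat 1 or rat 2 gave -0.66 (adjusted p = 0.0574) and -0.58 (adjusted p = 0.140). Median centring gave -1.12, where the median of all tested probes was itself at -0.38, against -0.06 with quantile normalization. The level at 168 h differed from that at 24 h by -0.25 ± 0.20, which did not pass the test (adjusted p = 0.337, interval -0.65 to 0.15; 37.7% of probes called). The step from 4 to 12 h, at -0.44 ± 0.18, did not pass either (adjusted p = 0.0721, interval -0.81 to -0.07; 26.3% of probes called), but it passed without 4 h rat 3 (-0.58, adjusted p = 0.0222) and with array weights (-0.51, adjusted p = 0.00453).

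**Figure D1:**
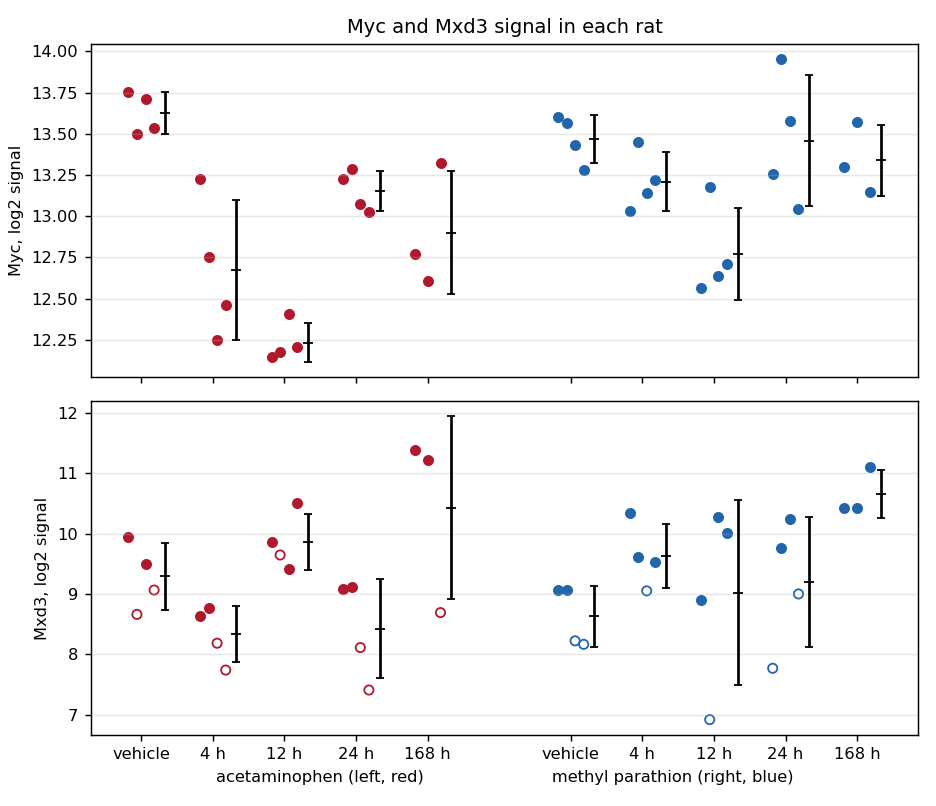
Log2 signal of Myc and Mxd3 in every rat, by group, with the mean and SD as bars, and with open circles where the signal-to-noise ratio was under 3. Myc was lowest 12 h after acetaminophen (12.14 to 12.41) and highest on average in the vehicle groups, whereas Mxd3 had its highest means at 168 h after either chemical and spread more widely within groups.

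After methyl parathion, Myc was lower at 12 h, where the change passed the test, and no change was called at 4, 24 or 168 h. At 4 h the log2 level was 13.03, 13.45, 13.14 and 13.22 (13.21 ± 0.18), which overlapped with the vehicle rats through rat 2. The change of -0.26 ± 0.18 did not pass (limma adjusted p = 0.646, interval -0.63 to 0.11). No probe at all passed at 4 h (0% called), while 1371 of 12805 had an unadjusted p under 0.05 and array weights called 392.

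At 12 h the log2 level of Myc was 12.56, 13.18, 12.64 and 12.71 (12.77 ± 0.28). All 4 rats lay below the lowest vehicle rat, as 7.5% of probes did, with rat 2 well above the other 3. The change was -0.70 ± 0.18 (1.62-fold lower, limma adjusted p = 0.0160), beside 8.04% of probes called, 3.12% as higher and 4.92% as lower. The call was lost in 5 of 8 fits that left out 1 rat (-0.83 to -0.63, adjusted p 0.00251 to 0.0761), namely vehicle rats 1 and 2 and 12 h rats 1, 3 and 4. Median centring gave -0.86 (adjusted p = 0.101), where the median of tested probes was at -0.25, and the fit of these 8 arrays alone gave an adjusted p of 0.0635.

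At 24 h Myc was at 13.26, 13.95, 13.58 and 13.04 (13.46 ± 0.40), a range that enclosed all vehicle rats. Rat 2 held the highest level of the study. The difference from vehicle was -0.01 ± 0.18 (limma adjusted p = 0.989, interval -0.38 to 0.36; 2.38% of probes called). At 168 h the level was 13.30, 13.57 and 13.14 (13.34 ± 0.22, n = 3), overlapping with the vehicle rats. The change of -0.13 ± 0.20 did not pass (adjusted p = 0.680, interval -0.53 to 0.27; 18.2% of probes called).

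Between times after methyl parathion, the difference from 4 to 12 h was -0.44 ± 0.18 (limma adjusted p = 0.167; 1.29% of probes called) and from 12 to 24 h 0.69 ± 0.18 (adjusted p = 0.0606; 0.718% called). From 24 to 168 h it was -0.12 ± 0.20 (adjusted p = 0.781; 0.0312% called). None of these 3 steps passed, although the 12 h mean was the lowest after either chemical. The step from 12 to 24 h passed without 12 h rat 2 (0.82, adjusted p = 0.0111), without 24 h rat 1 (0.75, adjusted p = 0.0159) or rat 4 (0.82, adjusted p = 0.0472), and with array weights (0.74, adjusted p = 0.0259), which also called the step from 4 to 12 h (-0.54, adjusted p = 0.0125).

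Whether Myc responded differently to the chemicals was tested as the change after acetaminophen minus the change after methyl parathion. The differences were -0.69 ± 0.26 at 4 h, -0.69 ± 0.26 at 12 h, -0.46 ± 0.26 at 24 h and -0.59 ± 0.28 at 168 h, all toward a lower level after acetaminophen. None passed (limma adjusted p = 0.259, 0.0734, 0.195 and 0.212). No probe was called at 4 h (1879 had an unadjusted p under 0.05, and array weights called 757), and 11.4%, 25.7% and 3.4% were called at 12, 24 and 168 h. The 4 h difference passed without acetaminophen rat 1 (-0.88, adjusted p = 0.0438) and with array weights (-0.68, adjusted p = 0.0271). The 12 h difference passed with array weights (-0.66, adjusted p = 0.00900), with only the arrays compared (-0.69, adjusted p = 0.0226) and with all 8 vehicle rats as controls (-0.54, adjusted p = 0.0260). Over its 25 alternative settings the adjusted p ran from 0.00900 to 0.580. A fall called for one chemical and not for the other is therefore not shown to differ between them at any time by the planned test.

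In descending order of mean log2 level, Myc stood at 13.62 in acetaminophen vehicle rats and 13.47 in methyl parathion vehicle rats. The methyl parathion groups at 24, 168 and 4 h followed at 13.46, 13.34 and 13.21. Below them came acetaminophen at 24 h (13.15) and 168 h (12.90), methyl parathion at 12 h (12.77), and acetaminophen at 4 h (12.67) and 12 h (12.23). The ranges of all 9 pairs of neighbours in this order overlapped.

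Mxd3 was a dimmer transcript, above background in 24 of 38 arrays, and at least 2 arrays of every group measured it. Its log2 levels ran from 6.92 to 11.39. Vehicle rats of acetaminophen had log2 levels of 9.94, 8.66, 9.50 and 9.07 (9.29 ± 0.55, above background in 2 of 4). Vehicle rats of methyl parathion had 9.06, 9.07, 8.23 and 8.17 (8.63 ± 0.50, 2 of 4). These groups overlapped, and their difference of 0.66 ± 0.58 did not pass (limma adjusted p = 0.775, interval -0.52 to 1.84).

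Against vehicle, Mxd3 rose by a called amount in 1 of 8 treated groups, at 168 h after methyl parathion. It was 4.07-fold higher there than in the vehicle rats, of which 2 of 4 were above background. Its log2 level there was 10.43, 10.43 and 11.11 (10.66 ± 0.39, n = 3, above background in all 3). All 3 rats were above every vehicle rat, as 15.9% of tested probes were. The change was 2.03 ± 0.63 (SE; limma adjusted p = 0.0228, interval 0.75 to 3.30), beside 18.2% of probes called, 9.1% as higher and 9.13% as lower. Leaving out 1 rat gave 1.80 to 2.17 (adjusted p 0.0274 to 0.0931), and the call was lost without vehicle rat 3 or 4 or 168 h rat 2 or 3. It was also lost with median centring (1.66, adjusted p = 0.0535), where the median of tested probes was at -0.26.

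At 168 h after acetaminophen Mxd3 was at 11.39, 11.22 and 8.69 (10.43 ± 1.51, n = 3). Rats 1 and 2 were above every vehicle rat, and rat 3, whose signal-to-noise ratio was 2.63, lay among them. The change of 1.14 ± 0.63 did not pass (limma adjusted p = 0.227, interval -0.13 to 2.41). Without rat 3 it was 2.01 (adjusted p = 0.0475), and over all its alternatives the adjusted p ran from 0.0475 to 0.576. The difference between the chemicals at 168 h was -0.89 ± 0.89 (adjusted p = 0.603, interval -2.69 to 0.92).

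Earlier after acetaminophen, the step of Mxd3 from 4 to 12 h was called, and no change against vehicle passed. The log2 level at 4 h was 8.64, 8.76, 8.19 and 7.74 (8.33 ± 0.47, above background in 2 of 4). At 12 h it was 9.86, 9.65, 9.42 and 10.50 (9.86 ± 0.47, 3 of 4), and every 12 h rat was above every 4 h rat, as 14.3% of probes were. The rise of 1.53 ± 0.58 passed narrowly (limma adjusted p = 0.0486; 12.7% of probes called as higher). It was lost in each of 8 fits without 1 rat (1.31 to 1.67, adjusted p 0.0514 to 0.145), with the rat number as a block (adjusted p = 0.0595), with median centring (1.50, adjusted p = 0.0562) and without the detection filter (adjusted p = 0.0836).

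At 24 h after acetaminophen Mxd3 was at 9.08, 9.11, 8.11 and 7.41 (8.43 ± 0.82, 2 of 4 above background), below every 12 h rat, as 8.02% of probes were. The difference of -1.43 ± 0.58 from 12 h did not pass (limma adjusted p = 0.153). From 24 to 168 h the level rose by 2.004 ± 0.63 (adjusted p = 0.0105; 18.4% of probes called as higher), although the groups overlapped through rat 3. Without 168 h rat 1 the rise was 1.53 (adjusted p = 0.0902), without rat 2 it was 1.61 (adjusted p = 0.0830), and leaving out 1 rat in turn gave 1.53 to 2.87. Against vehicle, the changes at 4, 12 and 24 h were -0.96 ± 0.58, 0.56 ± 0.58 and -0.87 ± 0.58, and none passed (adjusted p = 0.330, 0.4998 and 0.265).

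Earlier after methyl parathion, no change of Mxd3 passed. At 4 h its log2 level was 10.34, 9.61, 9.05 and 9.53 (9.63 ± 0.53, 3 of 4 above background), with 3 rats above every vehicle rat. At 12 h it was 8.90, 6.92, 10.28 and 10.00 (9.03 ± 1.53, 3 of 4), where rat 2 held the lowest level of the study. The level at 24 h was 7.77, 9.76, 10.24 and 9.002 (9.19 ± 1.08, 2 of 4), which enclosed the vehicle rats.

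The changes were 1.003 ± 0.58, 0.39 ± 0.58 and 0.56 ± 0.58 at 4, 12 and 24 h (limma adjusted p = 0.541, 0.730 and 0.689). The intervals ran from -0.18 to 2.18, from -0.79 to 1.57 and from -0.62 to 1.74. Steps between successive times were -0.61, 0.17 and 1.46 (adjusted p = 0.579, 0.912 and 0.203).

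Between the chemicals, Mxd3 differed by -1.96 ± 0.82 at 4 h, 0.17 ± 0.82 at 12 h and -1.43 ± 0.82 at 24 h, and none of these passed (limma adjusted p = 0.281, 0.940 and 0.209). The order of group means from high to low was methyl parathion at 168 h, acetaminophen at 168 and 12 h, methyl parathion at 4 h, acetaminophen vehicle, methyl parathion at 24 and 12 h, methyl parathion vehicle, and acetaminophen at 24 and 4 h. Neighbours overlapped in all 9 pairs.

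**Figure D2:**
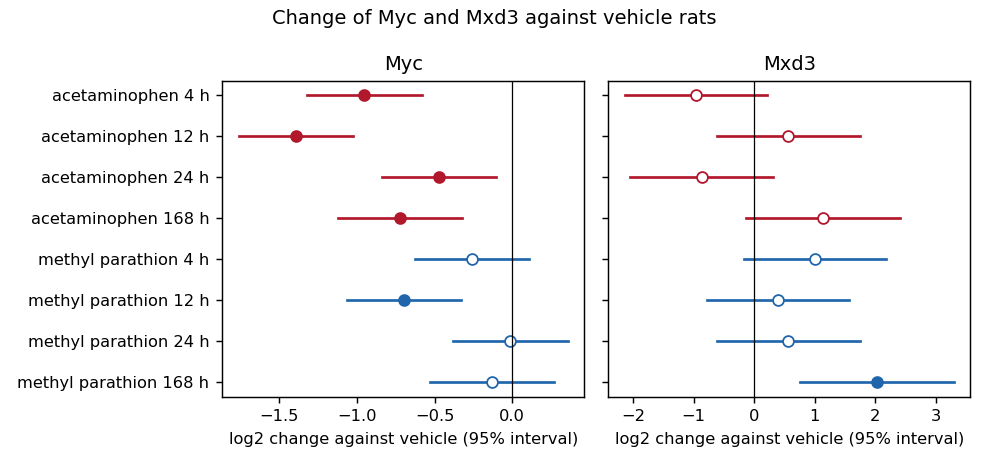
Log2 change of Myc and Mxd3 against the vehicle rats of the same chemical at each time, with 95% intervals from limma and filled points where the adjusted p was under 0.05. Myc was called at all 4 times after acetaminophen and at 12 h after methyl parathion (-0.70), and Mxd3 at 168 h after methyl parathion (2.03).

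The levels of Myc and Mxd3 showed little relation across the study. Over the 10 group means Pearson's r was -0.05, which puts Mxd3 at rank 1840 of 3441 genes in likeness to Myc. Within groups, deviations from the group mean over the 38 arrays gave r = -0.0942 (permutation p = 0.680) and Spearman's rho = 0.0388 (permutation p = 0.847), and r = -0.205 once the 2 most extreme arrays were dropped. With median centring r was 0.214 (permutation p = 0.226), so its direction was not settled.

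Of 11 further members of the MYC, MAX and MXD network, 3 were on the array under their own symbol, and Max and Mxi1 were tested. Max, the shared partner, rose 12 h after acetaminophen by 1.67 ± 0.25 (limma adjusted p = 2.27e-06) and at 24 h by 1.79 ± 0.25 (adjusted p = 6.11e-07). Mxi1, an MXD family repressor, rose by 2.02 ± 0.27 at 12 h (adjusted p = 2.67e-07) and by 1.32 ± 0.27 at 24 h (adjusted p = 0.000151). Both rises stood beside 13.8% and 14.7% of probes called as higher at these times. At 168 h after methyl parathion, where Mxd3 was called higher, Max fell by 1.18 ± 0.27 (adjusted p = 0.00352). These comparisons with acetaminophen share the same 4 vehicle rats.

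Of 40 tested genes that MYC is known to activate for growth, 22 fell and 3 rose 12 h after acetaminophen, when the mean of Myc was lowest. Of all probes 20.5% fell and 13.8% rose at this time, and the median change was -0.70 for the list and -0.03 over all tested probes. Apex1, a DNA repair endonuclease, changed by -1.43 ± 0.14, Hspe1, a mitochondrial chaperonin, by -1.28 ± 0.15, and Gnl3, a nucleolar GTP-binding protein, by -1.13 ± 0.14. The members that rose were Hk2, a hexokinase, at 2.75 ± 0.40, Eif4ebp1, an inhibitor of translation initiation, at 1.54 ± 0.15, and Ldha, lactate dehydrogenase A, at 0.61 ± 0.15. With median centring 18 fell and 3 rose. Of all 12805 probes, 1777 fell and 1377 rose in that setting, against 2620 and 1769 without it.

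At 24 h after acetaminophen 14 of the 40 growth genes fell and 6 rose (median -0.33), where 20.9% of all probes fell and 14.7% rose, so the share that rose was near that of all probes. With median centring 2 fell and 6 rose. Of all 12805 probes, 1749 fell and 1611 rose in that setting, against 2676 and 1882 without it. Cct2 and Cct3, chaperonin subunits, changed by -0.90 ± 0.14 and -0.96 ± 0.18, and Hspe1 by -0.81 ± 0.15. Hk2 rose by 3.64 ± 0.40, Bcat1, a branched-chain aminotransferase, by 1.66 ± 0.26 and Eif4ebp1 by 1.29 ± 0.15. At 4 h 2 rose and 2 fell (median -0.31), near the 2.9% and 3.68% of all probes. At 168 h 1 rose and 7 fell (median -0.19), beside 3.08% and 8.02% of all probes. With median centring none were called at 4 h, and 10 fell and none rose at 168 h. Of all 12805 probes, 1845 fell and 74 rose in that setting at 168 h, against 1027 and 394 without it. With array weights 13 fell and 5 rose at 4 h. Of all probes, 2113 were called at 4 h with array weights and 201 with median centring, against 842 without them.

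After methyl parathion at 12 h 4 growth genes fell and 1 rose (median -0.29), beside 4.92% and 3.12% of all probes. The number that fell ran from 0, with median centring or with only the arrays compared, to 19 with array weights. Of all probes, 323, 0 and 3719 were called in these settings, in the order given, against 1029 without them. The list count therefore moved along with the total called. Npm1, a nucleolar protein, changed by -0.97 ± 0.22, Gnl3 by -0.66 ± 0.14, and Ddx18, an RNA helicase, by -0.59 ± 0.15, while Eif4ebp1 rose by 0.53 ± 0.15. None of the 40 passed at 4 or 24 h (medians 0.04 and -0.06), where 0% and 2.38% of all probes were called. At 168 h 4 rose and 3 fell (median 0.11), near the 9.1% and 9.13% of all probes, against 0 and 2 with median centring. Of all 12805 probes, 167 rose and 1369 fell with median centring at 168 h, against 1165 and 1169 without it.

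Of 13 tested genes that MYC is known to repress, 6 rose and 1 fell at 12 h after acetaminophen (median 0.66), where 13.8% of all probes rose and 20.5% fell. Gadd45a, a growth arrest gene, rose by 3.09 ± 0.24, Cebpd, a transcription factor of myeloid cells and the acute phase, by 2.85 ± 0.25, and Klf6, a zinc finger transcription factor, by 1.52 ± 0.18. Dusp6, a phosphatase of ERK kinases, changed by -0.50 ± 0.17. At 24 h 6 rose and 3 fell (median 0.56), where 14.7% of all probes rose and 20.9% fell, so the share that fell was near that of all probes. Gadd45a, Cebpd and Klf6 led the rises at 3.14 ± 0.24, 2.45 ± 0.25 and 1.10 ± 0.18. Cdkn2c, a cell cycle inhibitor, changed by -1.46 ± 0.38, Itgb1, an integrin chain, by -1.15 ± 0.25, and Btg1, an antiproliferative gene, by -0.58 ± 0.20.

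At 4 h after acetaminophen 3 repressed genes rose and none fell (median 0.36), beside 2.9% and 3.68% of all probes, and none were called with median centring. Of all 12805 probes, 88 rose and 113 fell in that setting, against 371 and 471 without it. At 168 h 1 rose and 1 fell, beside 3.08% and 8.02% of all probes. At 12 h after methyl parathion 2 rose and none fell (median 0.20; 3.12% and 4.92% of all probes), namely Cebpd by 1.10 ± 0.25 and Gadd45a by 0.89 ± 0.24. None passed at 4 or 24 h, where 0% and 2.38% of all probes were called, and at 168 h 1 fell (9.13% of all probes).

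**Figure D3:**
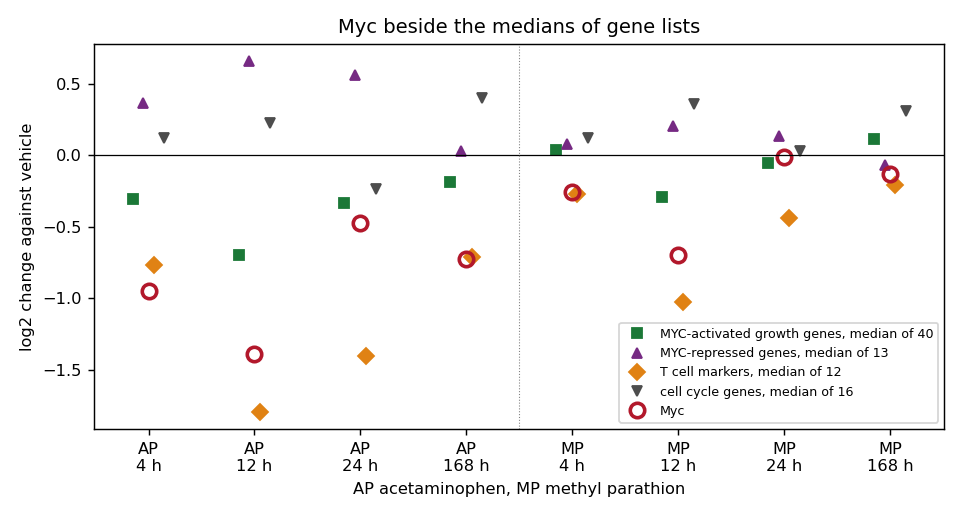
Median log2 change against vehicle of the growth genes, the repressed genes, the T cell markers and the cell cycle genes, beside the change of Myc, by comparison. At 12 h after acetaminophen 22 of 40 growth genes were called as lower and 3 as higher. All 12 T cell markers were called as lower. Of 13 repressed genes 6 were called as higher and 1 as lower. Of all probes 20.5% were called as lower and 13.8% as higher at this time.

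Among cofactors, 3 of 20 listed were tested. Ruvbl1, an ATPase of chromatin complexes that binds MYC, changed by -1.20 ± 0.17 at 12 h and -0.77 ± 0.17 at 24 h after acetaminophen. The other tested cofactors were not called at these times, where 20.5% and 20.9% of all probes were called as lower. Of genes for MYC protein turnover 5 of 14 were tested. Pim1, a kinase reported to stabilise MYC, rose by 1.28 ± 0.28 at 12 h and 2.04 ± 0.28 at 24 h after acetaminophen and by 0.99 ± 0.28 at 12 h after methyl parathion. Gsk3b, the kinase that marks MYC for degradation, rose by 0.75 ± 0.20 at 12 h after acetaminophen, and Trim32, a ubiquitin ligase, changed by -0.80 ± 0.19 at 12 h and -0.90 ± 0.19 at 24 h.

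Of 19 listed regulators of Myc transcription 9 were tested. At 12 h after acetaminophen 2 rose and 3 fell, beside 13.8% and 20.5% of all probes. Stat3 and Stat5b, transcription factors of cytokine signalling, rose by 1.53 ± 0.20 and 2.37 ± 0.43. Lef1, a nuclear partner of beta-catenin, changed by -2.02 ± 0.49, Stat5a by -1.09 ± 0.26, and Ctcf, an insulator protein, by -0.54 ± 0.14. At 24 h Stat3 and Stat5b rose by 1.30 ± 0.20 and 2.07 ± 0.43, while Hes1, a Notch target, changed by -1.46 ± 0.46 and Ctcf by -0.66 ± 0.14.

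After methyl parathion at 12 h 2 regulators fell, beside 4.92% of all probes. These were Hnrnpk, an RNA-binding protein, by 0.69 ± 0.15 and Ctcf by 0.52 ± 0.14. Hnrnpk had more than 1 tested probe, and the brightest was read. At 168 h 4 fell and none rose (9.13% and 9.1% of all probes), and none passed at 4 or 24 h (0% and 2.38% of all probes). With median centring none fell at 12 h and 2 fell at 168 h. Of all 12805 probes, 258 and 1369 fell at these times in that setting, against 630 and 1169 without it.

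Some or all markers of T cells fell in each comparison with vehicle in which Myc was called lower. Of 12 tested T cell markers 7, 12, 12 and 4 fell at 4, 12, 24 and 168 h after acetaminophen (medians -0.77, -1.79, -1.41 and -0.71), where 3.68, 20.5, 20.9 and 8.02% of all probes fell. After methyl parathion 11 fell at 12 h (median -1.03; 4.92% of all probes) and none at the other times. Of all probes 0, 2.38 and 18.2% were called at 4, 24 and 168 h after methyl parathion. No T cell marker rose in these 8 comparisons. Over 9 alternative settings the number that fell was 12 at 12 and 24 h after acetaminophen, but ran from 0 to 9 at 4 h, from 3 to 9 at 168 h and, at 12 h after methyl parathion, from 0 to 12. The lowest counts at 4 h after acetaminophen and at 12 h after methyl parathion came with only the arrays compared. In that setting no probe at all was called in either comparison, Myc included.

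The mean log2 level of the 12 markers was 13.69 to 13.93 in the acetaminophen vehicle rats, 12.69 to 13.52 at 4 h, 11.84 to 12.26 at 12 h, 12.10 to 12.72 at 24 h and 13.05 to 13.32 at 168 h. It was 13.45 to 13.82 in the methyl parathion vehicle rats and 12.22 to 13.40 at 12 h. From 12 to 24 h after acetaminophen none of these markers was called in either direction (median 0.18). Of all probes 6.96% were called in this step, so a count of none is near that share. Between 10 and 12 of the 12 were above background in every array.

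The T cell marker level and Myc were positively related over rats, though not in every group. Over deviations from group means in 38 arrays, Pearson's r was 0.679 (permutation p = 0.00083) and Spearman's rho 0.654 (permutation p = 0.00063), with r = 0.666 without the 2 farthest arrays and an adjusted p of 0.00207 over 5 such relations. In 7 of 10 groups the rat with the highest T cell level also had the highest Myc level, as rat 2 did at 12 h after methyl parathion (13.40 for T cells, 13.18 for Myc). In 2 groups the rat with the highest T cell level had the lowest Myc level. These were acetaminophen vehicle rat 2 (13.93 for T cells, 13.50 for Myc) and acetaminophen rat 4 at 24 h (12.72 and 13.03). Both measures come from the same array, and the share of probes above background was also related to Myc (r = 0.336, permutation p = 0.0238, rho = 0.426, permutation p = 0.0116; r = 0.277 without the 2 farthest, adjusted p = 0.0397). The part of either in the fall of Myc was not tested.

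B cell markers, of which 3 were tested, fell in 3, 2 and 3 cases at 4, 12 and 24 h after acetaminophen (medians -2.72, -1.47 and -2.60) and in 1 case at 12 h after methyl parathion (median -0.97). Of all probes 3.68, 20.5 and 20.9% fell at these times after acetaminophen and 4.92% at 12 h after methyl parathion. Their mean level was 12.09 to 12.66 in the acetaminophen vehicle rats, 8.39 to 12.01 at 4 h, 10.63 to 10.97 at 12 h and 8.86 to 10.46 at 24 h. At 168 h after acetaminophen none of the B cell markers was called (median -0.97), beside 8.02% of all probes called as lower. Their mean level, at 11.25 to 11.50, was below every vehicle rat, as 17.8% of single probes were. Over 9 alternative settings the number of B cell markers called as lower there ran from 0 to 3.

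Of 11 tested neutrophil markers, 9 rose and 1 fell at 12 and at 24 h after acetaminophen, where 13.8 and 14.7% of all probes rose and 20.5 and 20.9% fell, with mean levels of 14.54 to 14.78 and 15.19 to 15.37 against 12.16 to 12.64 in vehicle rats. Hepatocyte markers, of which 11 were tested, rose in 8 cases at 24 h, from 8.99 to 9.38 in vehicle rats to 11.44 to 12.39. Of 12 natural killer markers 3 fell and 1 rose at 12 h, and 11 fell at 24 h (20.9% of all probes). Of 6 monocyte markers 4 rose and 1 fell at 12 h after acetaminophen, and 3 rose and 2 fell at 24 h. Of 5 platelet markers 3, 2 and 1 rose at 4, 12 and 24 h (2.9, 13.8 and 14.7% of all probes). Over 9 alternative settings the platelet count at 4 h ran from 0 to 3. The part of these shifts in the levels of Myc and Mxd3 was not tested.

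**Figure D4:**
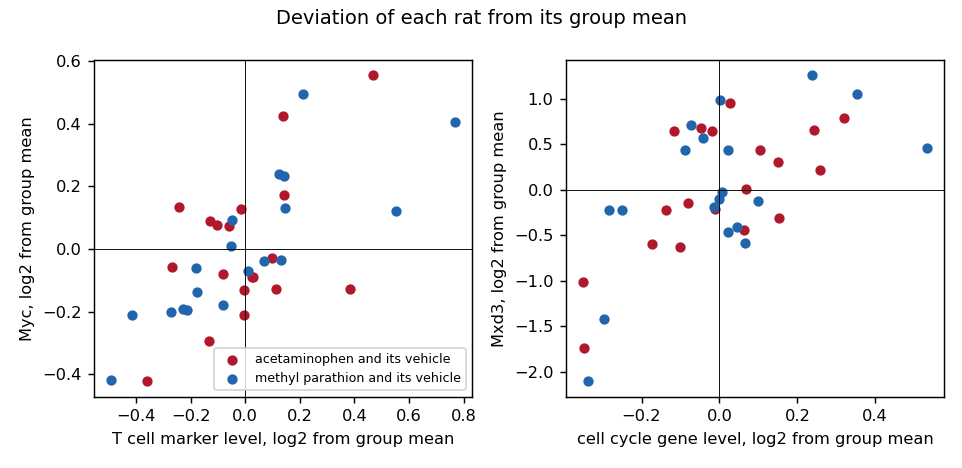
Deviation of each rat from its group mean, in log2, for the T cell marker level against Myc and for the cell cycle gene level against Mxd3. Pearson's r was 0.679 and 0.636 over 38 arrays, with single rats that go against it in both panels.

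Mxd3 was set beside a list of 16 cell cycle genes, which was chosen with these data known. Over 38 arrays, deviations of the mean level of the list were related to those of Mxd3, with r = 0.636 (permutation p = 0.00057), rho = 0.510 (permutation p = 0.00732), r = 0.640 without the 2 farthest arrays and an adjusted p of 0.00207. The rat with the highest cell cycle level had the highest Mxd3 level in 3 of 10 groups and the lowest in 1. The relation of Mxd3 to the share of probes above background did not pass (r = 0.0548, permutation p = 0.722; rho = 0.138, permutation p = 0.434; r = 0.0317 without the 2 farthest). Apart from the relation of Myc to Mxd3, these relations were chosen after the data had been seen.

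At 168 h 3 of 16 cell cycle genes were called as higher and none as lower after either chemical, beside 3.08% of all probes called as higher after acetaminophen and 9.1% after methyl parathion. The list medians were 0.40 and 0.31, and 0.0027 and -0.044 with median centring. The genes named here were chosen after their values were seen. After acetaminophen these were Top2a, the topoisomerase of dividing cells, at 1.30 ± 0.38 (limma adjusted p = 0.0263), Cdc20, an activator of mitotic exit, at 1.26 ± 0.30 (adjusted p = 0.00671), and Birc5, survivin, at 1.16 ± 0.29 (adjusted p = 0.0107). After methyl parathion they were Kif22, a mitotic kinesin, at 1.995 ± 0.52 (adjusted p = 0.00740), Cdc20 at 1.39 ± 0.30 (adjusted p = 0.00180) and Cdk1, the mitotic kinase, at 1.11 ± 0.38 (adjusted p = 0.0364). After acetaminophen Kif22 was at -1.19 ± 0.52 and Cdk1 at 0.44 ± 0.38, neither called (limma adjusted p = 0.124 and 0.462). After methyl parathion Birc5 was at 0.17 ± 0.29 and Top2a at 1.05 ± 0.38, also not called (limma adjusted p = 0.730 and 0.0515). With median centring none of the 16 genes were called after acetaminophen and 2 after methyl parathion. Of all 12805 probes, 74 and 167 were called as higher in that setting, against 394 and 1165 without it.

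At earlier times few cell cycle genes were called. Mcm7, a subunit of the replicative helicase, changed by -0.83 ± 0.29 at 12 h and -0.72 ± 0.29 at 24 h after acetaminophen (adjusted p = 0.0225 and 0.0459). At 4 h after acetaminophen 2 fell (3.68% of all probes). None of the 16 passed at 4, 12 or 24 h after methyl parathion, where 0, 8.04 and 2.38% of all probes were called. Aurka was counted both here and among the genes for MYC protein turnover.

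Likeness to each gene was described by Pearson's r over the 10 group means among 3441 genes, whose points share arrays, vehicle rats and normalization. Closest to Myc were Scamp4, a secretory carrier membrane protein (r = 0.955), Il21r, the interleukin 21 receptor of lymphocytes (0.944), Adcy3, an adenylate cyclase (0.938), Snrpn, a small nuclear ribonucleoprotein (0.929), and Dcun1d5, a cofactor of cullin neddylation (0.927). Over the 38 single arrays r was 0.815, 0.869, 0.846, 0.386 and 0.572 for these. Most opposed were Mrgprx3, a receptor of the Mas-related family (r = -0.911), Klc4, a kinesin light chain (-0.908), and Jag1, a Notch ligand (-0.863). Their r over the 38 arrays was -0.536, -0.695 and -0.510.

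Closest to Mxd3 were Top2a (r = 0.922), Kif1c, a kinesin (0.914), Nfkb2, a precursor of an NF-kB subunit (0.885), Psmc5, a proteasome ATPase (0.879), and Mvb12a, an ESCRT-I subunit (0.868). Over the 38 arrays these had r of 0.678, 0.642, 0.459, 0.708 and 0.589. Most opposed were Slc6a20a, an amino acid transporter (-0.908), Sfxn1, a mitochondrial serine transporter (-0.887), and Dynlrb1, a dynein light chain (-0.880). Their r over the 38 arrays was -0.432, -0.451 and -0.529. Top2a is also on the cell cycle list, and its mean level was 9.67 in acetaminophen vehicle rats, 9.23 at 24 h and 10.97 at 168 h.

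**Figure D5:**
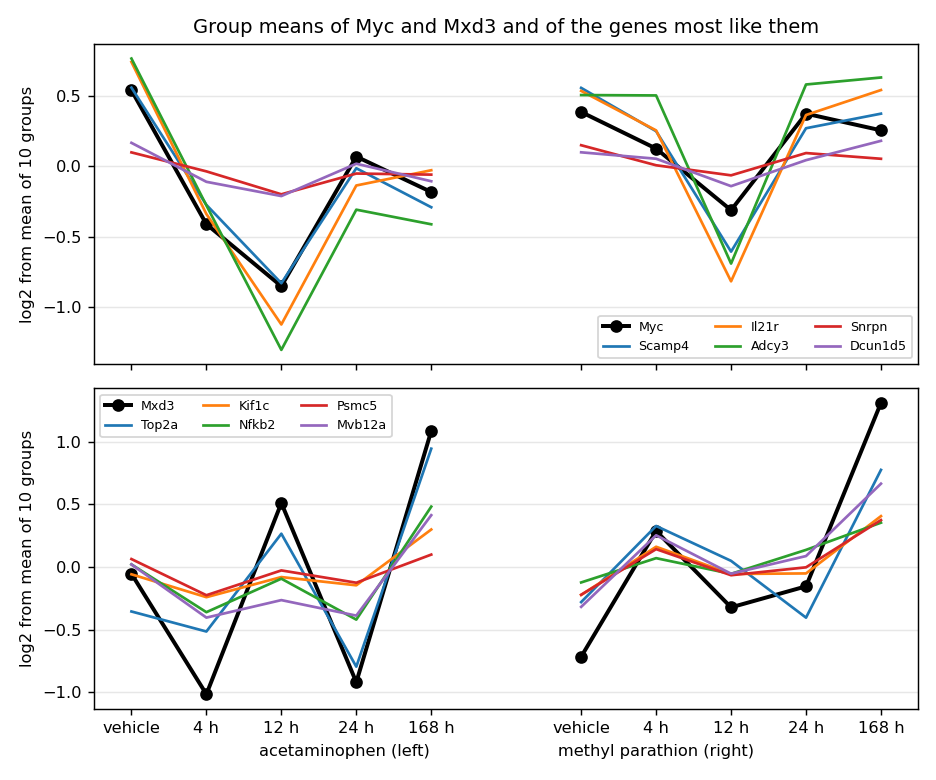
Group means of Myc and Mxd3 and of the genes most like each, over the 10 groups, on the log2 scale of signal. Scamp4, Il21r and Adcy3 dip with Myc at 12 h after acetaminophen, and Top2a and Kif1c peak with Mxd3 at 168 h.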

How the data were processed

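The 38 Applied Biosystems arrays, 1 per rat, read digoxygenin-labelled cRNA of leukocytes in 1 channel by chemiluminescence, per the labels' protocols. The deposited scanner files hold a signal intensity per probe, a signal-to-noise score and whole-number quality flags (a column of other kind). The series table the authors deposited is on the log2 scale, and its values differ from quantile-normalized scanner signals by 1.16e-09 in the median and 0.0141 at most. The array's genome build is not given in the sources used here.

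Low log2 values were set to the 5th percentile (6.40, which is a signal of 84.7), and spots flagged at 5000 or above (0.960% of values) counted as missing. A probe was tested if some group had most of its arrays at a signal-to-noise score of 3 or above and no group had fewer than 2 values, as held for 12805 of 26857 gene probes. Of all gene probes 6104 had 1 symbol, 70 several and 20683 none, and the 322 control spots were left out. Myc and Mxd3 had no missing value.

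The 10 groups entered 1 linear model in limma 3.58.1 under R 4.3.3 (eBayes with trend; degrees of freedom 28 residual, 6.31 prior), which was also tested on simulated data. Two-sided p-values were adjusted over all 12805 probes (Benjamini-Hochberg, threshold 0.05). Nothing in the labels pairs rats across groups, and deviations of rats with the same number correlated at -0.40 to 0.21 over 30 pairs, so no pairing was used. Gene lists are described by counts and medians without a list test. Their level in an array is the mean log2 value of the tested members. Named were Myc and Mxd3, the 5 most and 3 least like genes of each, tested network members where called, and of each pathway list the 3 smallest p per direction at 12 and 24 h after acetaminophen and 4, 12 and 24 h after methyl parathion. Correlations within groups used 100000 permutations within groups.

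The members, lists and tests were chosen with earlier results of these data known. Alternatives were median centring, other floors, no detection filter, flagged values kept, array weights, only the arrays compared, all 8 vehicle rats as controls, the rat number as a block, and leaving out each rat. Promoter sequence and coordinates came from RefSeq on GRCr8. The number of arrays limits the precision, and p-values measure the spread between rats.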

Additional observations from a re-analysis of the deposited data

Results flagged for a closer look

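Mxd3 at 4 h was not called after either chemical (-0.96, adjusted p = 0.330, and 1.003, adjusted p = 0.541, by limma), but its values lay on opposite sides of vehicle. It lay below the vehicle mean in all 4 rats given acetaminophen and above the vehicle mean in all 4 rats given methyl parathion. The pattern was picked by a rule on these same values, and how many probes share it was not counted. Single rats overlapped with vehicle rats after both chemicals. The vehicle means differed as well, at 9.29 for acetaminophen and 8.63 for methyl parathion. The difference between the changes was -1.96 on the log2 scale, and the limma test of it had an adjusted p of 0.281. Of the 4 rats in each group, 2 were above background after acetaminophen and 3 after methyl parathion. No rat stood apart by Dixon's criterion (0.829 for 4 rats) in any of the 16 combinations of gene and group of 4 rats. Its critical value is passed by chance in about 1 of 20 groups.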

How the results depend on the processing

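Among the 16 changes of Myc and Mxd3 against vehicle, median centring ended 4 calls, those of Myc after acetaminophen at 4 h (-1.07) and 24 h (-0.42), of Myc at 12 h after methyl parathion (-0.86) and of Mxd3 at 168 h after methyl parathion (1.66). Dropping the detection filter ended Myc at 24 h after acetaminophen (-0.47), and fitting only the arrays compared ended Myc at 4 h after acetaminophen (-0.95) and at 12 h after methyl parathion (-0.70). Myc at 12 h after acetaminophen was called in every setting. Leaving out 1 rat gave -0.52 to -0.43 for Myc at 24 h and -0.93 to -0.58 at 168 h after acetaminophen, and 0.66 to 2.01 for Mxd3 at 168 h. After methyl parathion it gave -0.83 to -0.63 for Myc and -0.024 to 1.10 for Mxd3 at 12 h, -0.18 to 0.13 for Myc at 24 h and 1.80 to 2.17 for Mxd3 at 168 h. Of the differences between chemicals, array weights made Myc pass at 4 h (-0.68) and 12 h (-0.66) and turned Mxd3 at 12 h (-0.37), and Myc at 12 h also passed with only the arrays compared (-0.69) and with all 8 vehicle rats (-0.54). Without 1 rat these were -0.88 to -0.55 for Myc at 4 h and -0.53 to 0.59 for Mxd3 at 12 h. Of the steps between times after acetaminophen, 4 to 12 h passed for Myc with array weights (-0.51; -0.58 to -0.26 without 1 rat) and was lost for Mxd3 with median centring (1.50), no detection filter (1.53) and the replicate block (1.53; 1.31 to 1.67 without 1 rat). The step from 12 to 24 h of Myc was lost with median centring (0.97), and that of Mxd3 from 24 to 168 h ran from 1.53 to 2.87 without 1 rat. After methyl parathion, array weights gave -0.54 for Myc and 0.073 for Mxd3 from 4 to 12 h, and 0.74 for Myc and -0.18 for Mxd3 from 12 to 24 h. Without 1 rat, Mxd3 ran from -1.03 to 0.092 and Myc from 0.52 to 0.82 over these steps, Mxd3 from -0.53 to 0.64 at the later one, and Myc from -0.26 to 0.047 from 24 to 168 h. The correlation of Myc and Mxd3 was 0.214 with median centring. The replicate block changed no other call of Myc or Mxd3. The causes were not tested.

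Counts of called probes moved by over 1.5 times. At 4 h after acetaminophen the 842 became 201 with median centring, 540 with no detection filter, 2113 with array weights and 0 with only the arrays compared. At 168 h the 1421 became 2601 with array weights. After methyl parathion, 0 at 4 h became 392 with array weights and 1 with all 8 vehicle rats. At 12 h 1029 became 323, 659, 3719 and 0 in the first 4 of these settings and 2870 with all 8 vehicle rats. At 24 h 305 became 157 with no detection filter, 874 with array weights and 0 with only the arrays compared, and at 168 h 2334 became 1536 with median centring. Without 1 rat these ran from 179 to 1624 and from 390 to 1243 after acetaminophen at 4 and 168 h, and from 253 to 1909, from 17 to 872 and from 1286 to 2035 after methyl parathion at 12, 24 and 168 h. For the differences between chemicals, 0 at 4 h became 757 with array weights and 264 with all 8 vehicle rats, 1463 at 12 h became 441, 3007 and 3318 (median centring, array weights, 8 vehicle rats), and 3290 at 24 h became 2028 with median centring. At 168 h 435 became 172 with median centring, 211 with no detection filter, 1356 with array weights, 175 with only the arrays compared and 13 with all 8 vehicle rats. Without 1 rat the differences ran from 0 to 350 at 4 h, from 966 to 1833 at 12 h and from 0 to 912 at 168 h. For the steps after acetaminophen, median centring took 3368 to 1769 and 891 to 407, and array weights took 891 to 2541. After methyl parathion 165 ran from 13 to 1962, 92 from 0 to 358 and 4 from 0 to 8 in these settings, and from 1 to 1150, 1 to 1119 and 3 to 483 without 1 rat. For the vehicle groups 0 became 1009 with array weights and 105 with only their arrays. The share of called probes that were higher moved from 27.7 to 3.86% at 168 h after acetaminophen and from 38.8 to 20.1%, 30.5 to 2.28% and 49.9 to 10.9% at 12, 24 and 168 h after methyl parathion with median centring. For the differences between chemicals it moved from 52.9 to 96.6%, 46.2 to 77.2% and 78.6 to 97.1% at 12, 24 and 168 h. For the steps from 4 to 12 h and 24 to 168 h after acetaminophen it moved from 48.2 to 71.4% and 48.8 to 19.8%, and for those from 4 to 12 h and 12 to 24 h after methyl parathion from 39.4 to 15.4% and 28.3 to 13.6%. The median change of tested probes was -0.11 at 4 h after acetaminophen and -0.29 at 24 h after methyl parathion with median centring. Mxd3 was above background in 24 of 38 arrays, which limits precision.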
